A study of Mus musculus with 6 samples.

Results

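The Cxcl12 chemokine axis was described in mandibular arches of C57BL/6 mouse embryos at E10.5, the tissue that forms the lower jaw and its muscles. It was taken as all probe sets that the platform annotation assigns to a single symbol among Cxcl12, Cxcr4, Ackr3 (formerly Cxcr7) and Cxcl14. These were 7 of 45037 probe sets that are not controls, and 4 of 18193 genes. The 6 Affymetrix Mouse Genome 430 2.0 arrays carried RNA of 3 samples labelled Tbx1+/+ (wild-type) and 3 labelled Tbx1-/- (labelled-null), with no other allele or agent named. Tbx1 encodes a T-box transcription factor of the pharyngeal apparatus, and the labels do not say how the null allele was made. Each genotype was represented by pooled arches of 3 embryos. Since the description does not say whether every array had a pool of its own, the spread behind each p-value may be technical.

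Cxcl12 is a secreted chemokine that guides migrating cells expressing the receptor Cxcr4, among them neural crest cells and precursors of branchial muscle. Ackr3 is an atypical receptor that binds Cxcl12 with high affinity, recruits arrestin, does not couple to G proteins in the usual way and removes the ligand from the surroundings, which shapes its gradient. Ackr3 also takes up adrenomedullin, the product of Adm. Cxcl14 is a related CXC chemokine of epithelia and mesenchyme whose receptor is not settled and which has been reported to bind Cxcr4.

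All 4 genes were read well above the low end of the scale, and none passed the threshold between the genotypes after adjustment over all genes. Cxcr4 had the only groups that did not overlap: it was 1.15-fold higher on the labelled-null arrays (log2 difference 0.21, SE 0.089, n = 3 per genotype), a difference that did not pass (limma adjusted p = 1.00). Cxcl12 differed by -0.12 (SE 0.12), Ackr3 by -0.069 (SE 0.16) and Cxcl14 by -0.073 (SE 0.15) on their brightest probe sets. Outside the 4 genes, Adm, another Ackr3 ligand, had the largest difference among the 96 pathway genes tested, at 3.20 (SE 0.60). It did not pass (limma adjusted p = 0.353), and the pathway lists were chosen with earlier results of these data known.

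Some facts of the series touch these values. Tbx1 itself was not lower on the labelled-null arrays: the probe set for it had means of 7.06 ± 0.22 (SD, n = 3, log2) for wild-type and 7.46 ± 0.15 (SD, n = 3) for labelled-null samples, and the sources used here do not say which part of the gene was disrupted, so it does not check the labels. Labelled-null replicate 3 stood apart, with 249 genes over 1 (log2) above the mean of the other arrays, against 6 to 32 on each other array. The trophoblast gene Prl7a1 read 13.28 there and 3.53 to 4.76 elsewhere, and the mean of the 5 trophoblast markers tested was 11.46 there and 5.73 to 6.03 elsewhere, with Ctsq and Tpbpa, also trophoblast genes, under the filter. The mean of 5 decidual markers was 9.11 there, 8.24 on labelled-null replicate 2 and 7.46 or below elsewhere. Gzmd and Gzme were under the filter. The rise of this mean came from Prl8a2 and Gzmf. They read 9.998 and 10.03 on labelled-null replicate 3, 7.72 and 6.82 on replicate 2, and at most 6.87 and 5.17 elsewhere. Prf1, Dcn and Hand2, the last also a marker of arch crest mesenchyme, differed between genotypes by -0.01, 0.12 and 0.12. The median difference of the decidual list was 0.12. The 10 markers of arch crest mesenchyme averaged 11.21 to 11.30 on every array, and none of them differed past the threshold. Values with labelled-null replicate 3 left out are given below.

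Cxcl12, the ligand, was measured by 3 probe sets. The brightest, 1417574_at, read 9.94, 10.17 and 9.93 on wild-type replicates 1 to 3 and 9.72, 10.08 and 9.88 on labelled-null replicates 1 to 3 (deposited log2 values). Labelled-null replicate 1 was the lowest and wild-type replicate 2 the highest, and the groups overlapped. The means were 10.02 ± 0.14 (SD, n = 3) and 9.89 ± 0.18 (SD, n = 3), and the 95% interval of the difference ran from -0.39 to 0.14, that is from 0.765 to 1.10 of the wild-type level. A two-sided exact permutation test gave p = 0.40, where 0.10 is the smallest value that 3 samples in each group allow. Limma gave an unadjusted p of 0.314 and, over 16073 genes, an adjusted p of 1.00. Within pairs of the same replicate number, the labelled-null value was lower in all 3, by -0.22, -0.097 and -0.053, and with the replicate block the unadjusted p in limma was 0.141. A shared direction in 3 pairs is weak: a two-sided paired permutation test, which was not run, could not go below p = 0.25.

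Both other Cxcl12 sets also had overlapping groups, but neither was lower in every pair. Set 1448823_at read 9.24, 9.48 and 8.89 on the wild-type and 9.15, 9.40 and 9.02 on the labelled-null arrays, a difference of -0.015 (SE 0.16, 95% interval -0.38 to 0.35), with pair differences of -0.090, -0.086 and 0.13. In that set the replicates numbered 2 were the highest of each genotype and the replicates numbered 3 the lowest. Set 1439084_at was dimmer, at 5.38, 5.51 and 5.67 against 5.43, 5.21 and 5.53, and differed by -0.13 (SE 0.14, 95% interval -0.45 to 0.18), by 0.048, -0.31 and -0.14 within pairs. Over the 6 arrays the 2 bright sets correlated at r = 0.668, while the dim set correlated with them at -0.177 and -0.649. These correlations describe 6 shared arrays, and the dim set did not follow the bright ones from array to array.

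Cxcr4, the G protein-coupled receptor through which Cxcl12 directs migration, was measured by 1 probe set, 1448710_at. It read 9.62, 9.41 and 9.57 on the wild-type replicates and 9.78, 9.69 and 9.75 on the labelled-null replicates. Every labelled-null value lay above every wild-type value, with a gap of less than 0.1 between the groups. The means were 9.53 ± 0.11 (SD, n = 3) and 9.74 ± 0.046 (SD, n = 3). The exact permutation test gave p = 0.10, the smallest this design allows. The limma fit over genes gave an unadjusted p of 0.0476, and the 95% interval of the difference ran from 0.0027 to 0.41, or 1.00-fold to 1.33-fold. In the fit over 37515 probe sets the unadjusted p was 0.0517, on the other side of 0.05, and the adjusted p was 1.00 in both fits. Labelled-null arrays were higher in all 3 replicate pairs, by 0.16, 0.28 and 0.17, and the replicate block gave an unadjusted p of 0.0296 in limma. The limit of 0.25 for a paired permutation test on 3 pairs holds here too. With 1 array left out in turn the unadjusted p in limma was under 0.05 in 1 case (0.0319, wild-type replicate 1 left out) and highest at 0.148, when wild-type replicate 2, the lowest array, was left out and the difference was 0.14.

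These Cxcr4 values are read against what all genes did. Of the 16073 genes tested, 6.43% had groups that did not overlap, and the labelled-null arrays were the higher ones for 3.17%. An unadjusted p under 0.05 was reached by 2.68% of genes, and by 4.24% with the replicate block. Of the 4 axis genes 1 met each of these criteria. An adjusted p under 0.05 was reached by 0.0373% of genes, which is 6 genes, and by 0.00533% of probe sets. None of the 4 genes or 7 probe sets was among them in limma, and Cxcr4 was the only gene of the axis with an unadjusted p under 0.05. The median absolute difference over all genes was 0.066, so a difference of 0.21 is wider than that of most genes but small in fold terms.

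**Figure D1:**
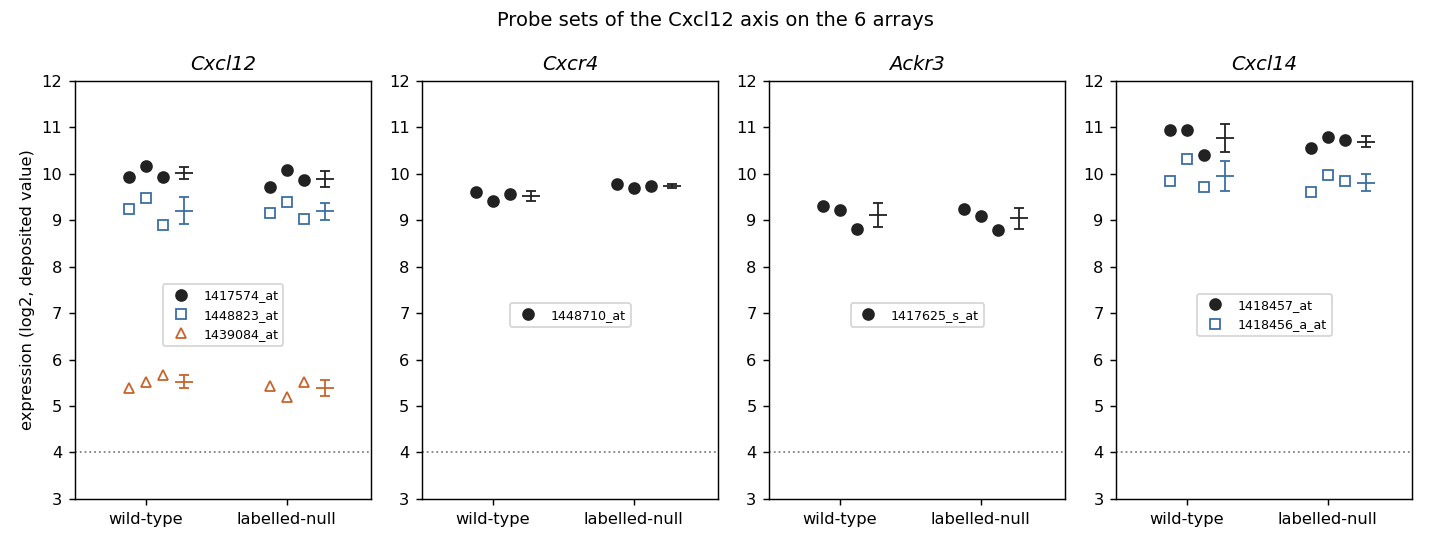
Deposited log2 expression (vertical axis) of each probe set of Cxcl12, Cxcr4, Ackr3 and Cxcl14 on the 3 wild-type and 3 labelled-null arrays, in replicate order from left to right, with the mean and SD of each group beside the points and the filter level of 4 as a dotted line. Cxcr4 is the only panel in which the labelled-null points (9.69 to 9.78) all lie above the wild-type points (9.41 to 9.62).

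Ackr3, the atypical receptor, was measured by 1417625_s_at, a set whose probes may also match related transcripts by the naming of the platform. It read 9.31, 9.22 and 8.81 on the wild-type and 9.24, 9.10 and 8.80 on the labelled-null arrays. The replicates numbered 3 were the lowest of both genotypes, and the groups overlapped almost entirely. The means were 9.11 ± 0.27 (SD, n = 3) and 9.05 ± 0.23 (SD, n = 3), with a 95% interval of the difference from -0.44 to 0.30 and an exact permutation p of 0.70. By replicate number the differences were -0.072, -0.12 and -0.013. Within a genotype, replicate 3 lay 0.30 to 0.50 from the others, while replicates 1 and 2 lay 0.092 (wild-type) and 0.14 (labelled-null) apart. The SE fell from 0.16 to 0.082 with the replicate block, and the unadjusted p in limma from 0.679 to 0.426. Without labelled-null replicate 3 the difference was 0.054, and without wild-type replicate 1 it was 0.030, both of the opposite sign.

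Cxcl14 was measured by 2 probe sets. The brighter, 1418457_at, read 10.93, 10.95 and 10.41 on the wild-type and 10.57, 10.79 and 10.72 on the labelled-null arrays. Wild-type replicates 1 and 2 were the highest and wild-type replicate 3 the lowest of all 6, so the labelled-null values lay inside the wild-type range. The difference of -0.073 had a 95% interval from -0.41 to 0.26, an exact permutation p of 0.70 and an unadjusted p of 0.631 in limma. The second set, 1418456_a_at, read 9.84, 10.32 and 9.72 against 9.61, 9.99 and 9.84 and differed by -0.15 (SE 0.16, 95% interval -0.52 to 0.23). The sets correlated at r = 0.732 over the 6 arrays. On both, the numbered pairs went in different directions: by -0.37, -0.16 and 0.31 on the brighter set and by -0.22, -0.34 and 0.12 on the other. Wild-type replicate 3 bore on this gene most: without it the brighter set differed by -0.25, with an unadjusted p of 0.0344 and an adjusted p of 1.00 in limma.

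**Figure D2:**
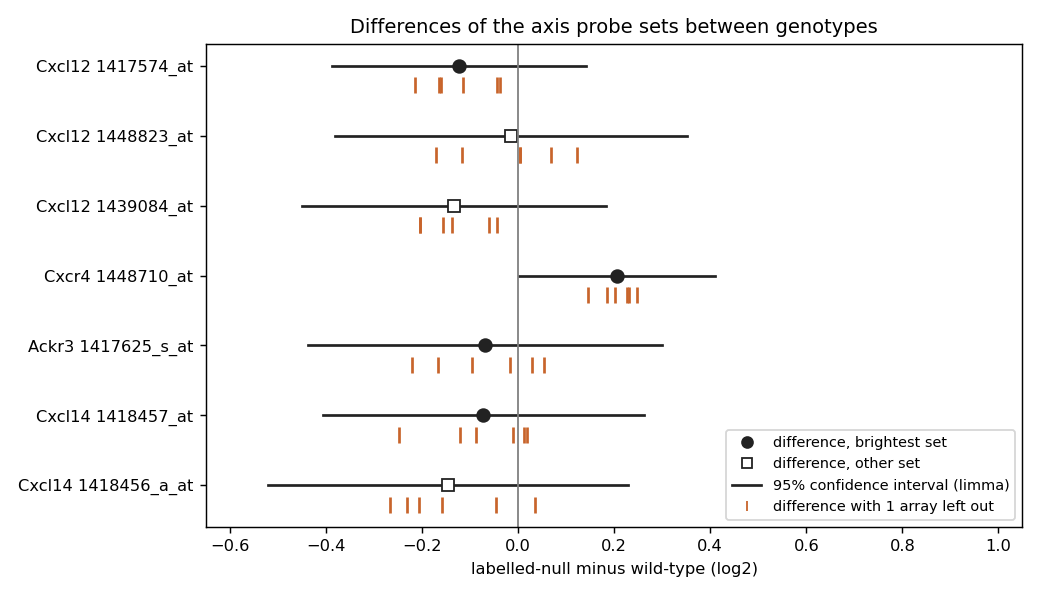
Difference between genotypes (labelled-null minus wild-type, log2, horizontal axis) of the 7 probe sets, with the 95% confidence interval from limma as a line and the differences with each array left out in turn as ticks. The brightest set of a gene is taken from the fit over genes and the others from the fit over probe sets. The intervals drawn span 0 except that of Cxcr4, which starts at 0.0027. In the fit over probe sets, not drawn for it, the Cxcr4 interval ran from -0.0019 to 0.41 and spanned 0.

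The promoters of the receptors and of the main ligand are shown because Cxcr4, Ackr3 and Cxcl12 belong to 1 signalling unit and genes of the response to low oxygen were higher on the same arrays (below). Cxcr4 is a known target of hypoxia-inducible factors. Each sequence is the 250 bases before the RefSeq gene start, 5′ to 3′ on the strand of the gene, in build GRCm38.p6. They lie at chr1:128592300-128592549 on the minus strand for Cxcr4, chr1:90203730-90203979 on the plus strand for Ackr3 and chr6:117168285-117168534 on the plus strand for Cxcl12. Capitals mark matches to the core of the hypoxia response element, searched as ACGTG and GCGTG on both strands.
Cxcr4: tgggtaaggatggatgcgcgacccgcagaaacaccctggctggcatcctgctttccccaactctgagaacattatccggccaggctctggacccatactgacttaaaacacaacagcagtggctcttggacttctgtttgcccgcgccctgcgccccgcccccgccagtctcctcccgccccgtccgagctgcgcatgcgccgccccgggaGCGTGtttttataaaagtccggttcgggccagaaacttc
Ackr3: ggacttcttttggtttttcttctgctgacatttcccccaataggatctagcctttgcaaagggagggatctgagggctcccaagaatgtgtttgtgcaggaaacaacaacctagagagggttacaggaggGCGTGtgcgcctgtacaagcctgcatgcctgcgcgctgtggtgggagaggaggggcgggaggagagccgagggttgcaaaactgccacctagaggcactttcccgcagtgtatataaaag
Cxcl12: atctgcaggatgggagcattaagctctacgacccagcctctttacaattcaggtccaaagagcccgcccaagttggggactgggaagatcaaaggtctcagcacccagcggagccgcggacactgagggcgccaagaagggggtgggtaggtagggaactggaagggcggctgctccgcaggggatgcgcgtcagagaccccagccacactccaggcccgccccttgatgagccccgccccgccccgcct

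Cxcr4 held 1 match, GCGTG beginning 39 bases before the gene start, and Ackr3 held 1, GCGTG beginning 120 bases before it. The Cxcl12 window held 0 and the Cxcl14 window, which is not printed, held 2. Such matches are common: 38.6% of 32851 RefSeq promoter windows of the same length held at least 1. The E-box CACGTG, which contains ACGTG and is bound by Bhlhe40, a repressor, was in 0 of the 4 windows and in 6.02% of all windows. The T-box core GGTGTGA was likewise in 0 of the 4 and in 3.33% of all. A match is a run of letters in this window and was not tested for binding.

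None of the related ligands and receptors passed the threshold, and many were under the level used as a filter. Of 13 other CXC ligands 9 passed the filter on low values and 4 (Cxcl2, Cxcl3, Cxcl5 and Cxcl10) did not; 0 rose and 0 fell in limma, and 0 had an unadjusted p under 0.05. Their differences ran from -0.21 for Cxcl11, an interferon-induced chemokine, to 0.35 for Ppbp, a platelet chemokine that read 7.48 on labelled-null replicate 3, 6.20 and 6.29 on the other labelled-null arrays and 5.75 to 6.72 on the wild-type ones, with a median of 0.01, against -0.01 over all genes tested. Of 21 CC, XC and CX3C ligands 15 were tested and 0 passed over all genes, with a median of 0.05. Cx3cl1, a membrane-bound chemokine, was the 1 among the 15 with an unadjusted p under 0.05 in limma, which 2.68% of all genes reached. It read 5.70, 5.68 and 5.39 on the wild-type and 6.14, 5.89 and 5.90 on the labelled-null arrays. Its groups did not overlap on that brightest set, but its other 3 sets differed by -0.11, -0.08 and -0.09. The sets at -0.08 and -0.09 read at most 3.79 and 2.79, below the filter level of 4 on every array, so they cannot show a direction. The set at -0.11, which read 4.92 to 5.24, was above that level and differed in the other direction from the brightest set.

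Of 22 other chemokine receptors 12 were tested, 8 were under the filter and 2 had no probe set assigned to them alone; 0 passed the threshold in limma and 0 had an unadjusted p under 0.05, with a median of 0.07. Ackr4, the atypical receptor that scavenges Ccl19, Ccl21 and Ccl25, was clearly read, at 9.81, 9.68 and 9.93 on the wild-type and 9.98, 9.73 and 9.93 on the labelled-null arrays, and differed by 0.07 (SE 0.10). Ackr1 and Ackr2, the remaining scavengers of the tested list, differed by 0.18 (SE 0.14) and 0.18 (SE 0.16).

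No gene of the signalling machinery below Cxcr4 passed either. Of 39 genes, which cover G protein subunits, kinases, arrestins and regulators of G protein signalling, 35 were tested, 0 passed and 0 had an unadjusted p under 0.05 in limma, with a median of 0.01 and a range from -0.14 to 0.26. Gnai2, the inhibitory G alpha subunit that couples chemokine receptors, read 11.57, 11.66 and 11.50 against 11.40, 11.50 and 11.47 and differed by -0.12 (SE 0.07). Arrb1 and Arrb2, the arrestins that both receptors recruit, differed by 0.12 (SE 0.11) and -0.14 (SE 0.11). Rgs5, a regulator of G protein signalling typical of pericytes, differed by 0.25 (SE 0.14). None of these passed.

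Among 20 genes that bind, present or process the ligand, 18 were tested and 0 passed over all genes in limma, with 2 lower at an unadjusted p under 0.05, a level that 2.68% of all genes reached. Both act on heparan sulphate, which holds Cxcl12 at the cell surface and in matrix, but the list as a whole had 13 higher and 5 lower means. Hs6st1, a heparan sulphate 6-O-sulphotransferase, read 9.89, 9.89 and 9.86 on the wild-type and 9.59, 9.67 and 9.69 on the labelled-null arrays. The labelled-null values all lay lower, and the difference was -0.23 (SE 0.08, adjusted p = 1.00 in limma). Sdc2, the core protein of a heparan sulphate proteoglycan, read 10.53, 10.72 and 10.61 against 10.41, 10.46 and 10.43, again without overlap, a difference of -0.18 (SE 0.08, adjusted p = 1.00 in limma). Groups without overlap were seen for 6.43% of all genes. The related syndecans Sdc1, Sdc3 and Sdc4 differed by 0.056, 0.059 and 0.11. Mif, an alternative ligand of Cxcr4, differed by 0.08 (SE 0.05), and Dpp4, the protease that inactivates Cxcl12, by 0.02 (SE 0.13). The median of the list was 0.05.

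Adm had the largest difference in the list of other Ackr3 ligands and their receptors, which was chosen with earlier results of these data known. Its brightest set read 6.93, 6.77 and 7.58 on the wild-type and 10.38, 8.84 and 11.66 on the labelled-null arrays. All 3 labelled-null values lay above all wild-type values, as for 3.17% of all genes. Labelled-null replicate 3 was the highest and replicate 2 the lowest of its group. The means differed 9.17-fold (log2 3.20, SE 0.60, 95% interval 1.82 to 4.57). With genotype alone limma gave an adjusted p of 0.353, against 0.0432 with the replicate block and 0.0260 without labelled-null replicate 2, so whether it passed rested on these choices. Without labelled-null replicate 3, the array with the trophoblast transcripts, the difference was 2.51, and the other Adm set differed by 2.53 with all arrays. Whether trophoblast tissue contributed to Adm on that array was not tested.

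The genes of the adrenomedullin receptor had smaller differences, with groups that overlapped. Calcrl, the receptor itself, read 9.69, 9.53 and 10.05 against 10.19, 9.70 and 9.85 (difference 0.16, SE 0.16), and Ramp2, the accessory protein that gives it its ligand preference, differed by 0.14 (SE 0.12). The scavenger Ackr3 differed by -0.069, as given above. Adm2, or intermedin, was near the low end of the scale, with means of 4.36 ± 0.072 (SD, n = 3, log2) for wild-type and 4.74 ± 0.37 (SD, n = 3) for labelled-null samples. Penk, whose opioid peptides Ackr3 also binds, differed by -0.03 (SE 0.25). Of the 7 genes tested in this list 0 passed over all genes in limma, with 1, Adm, at an unadjusted p under 0.05. That level was reached by 2.68% of all genes.

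**Figure D3:**
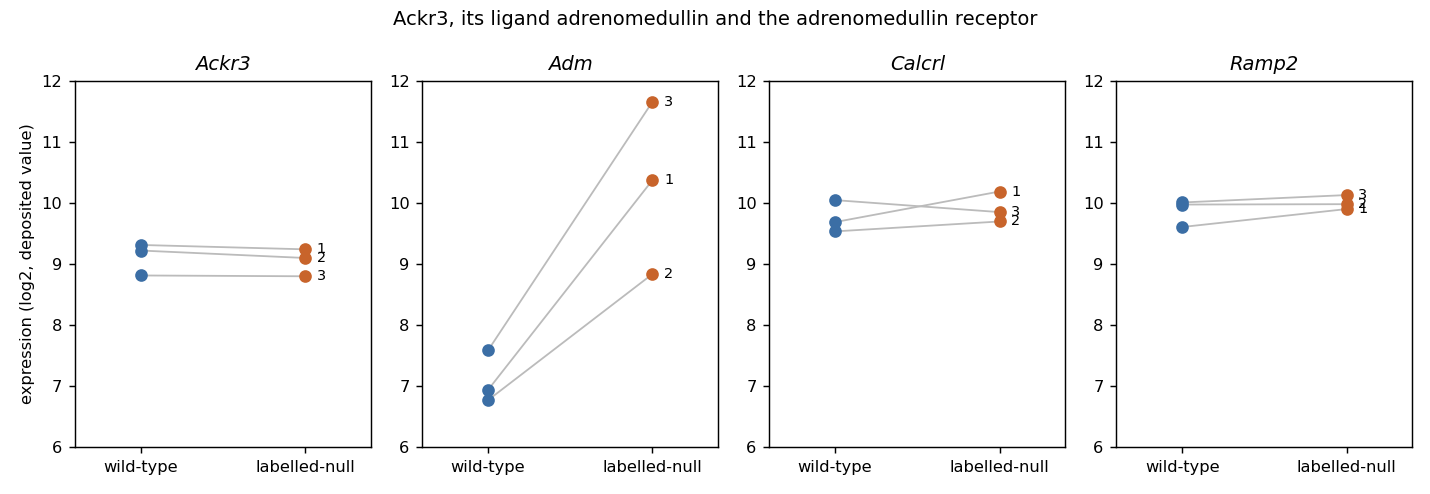
Deposited log2 expression (vertical axis) of Ackr3, Adm, Calcrl and Ramp2 on each array, with grey lines joining arrays of the same replicate number, printed beside the labelled-null points. Adm runs from 6.77 to 7.58 on the wild-type and from 8.84 to 11.66 on the labelled-null arrays, while the 3 receptor genes overlap between genotypes and the lines of Ackr3 are nearly level.

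Genes of the response to low oxygen had higher means on the labelled-null arrays. All 17 tested genes of that list, Adm among them, had higher labelled-null means, 12 of them without overlap, against 3.17% of all genes. Their median was 0.64, and 0 passed the threshold over all genes in limma. Before adjustment 15 had a p under 0.05 there, against 2.68% of all genes. The list was chosen with earlier results of these data known, so its counts only describe the genes listed. The list mean was 9.80, 9.85 and 9.96 on the wild-type and 10.97, 10.48 and 10.49 on the labelled-null arrays, highest on replicate 1, whereas Adm was highest on replicate 3. Ndrg1, a hypoxia-inducible gene, differed by 1.90 (SE 0.23, adjusted p = 0.0637 in limma). It passed with the replicate block (adjusted p = 0.0478 in limma) and with any 1 labelled-null array left out (0.0260 to 0.0364 in limma). It did not pass with any 1 wild-type array left out (adjusted p = 0.233 to 0.545 in limma). With the mean of its probe sets it differed by 1.16 and did not pass either (adjusted p = 0.36 in limma). The part of this response in the Cxcr4 and Adm values was not tested. The list median was 0.82 when labelled-null replicate 3 was left out and 0.39 when labelled-null replicate 1 was.

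Cells that carry the receptors in the arch include endothelium, which expresses Cxcr4 and Ackr3. In a bulk sample, fewer cells of a type and less RNA per cell cannot be told apart. The 10 endothelial markers averaged 8.06, 7.96 and 7.95 on the wild-type and 8.10, 8.03 and 8.20 on the labelled-null arrays, 6 had higher and 4 lower means, and all were above the filter. Esam and Egfl7, both endothelial, differed by 0.49 (SE 0.22) and 0.21 (SE 0.09) without passing, and by 0.24 and 0.19 without labelled-null replicate 3. The 8 macrophage and leukocyte markers, cells in which Cxcr4 is also typical, averaged 5.92 to 6.20 on the wild-type arrays, 5.78 and 5.90 on labelled-null replicates 1 and 2 and 6.71 on replicate 3. Csf1r, the receptor for macrophage growth factor, read 11.77 on that array and 6.30 to 7.94 elsewhere, and the mean of the 7 other markers was 5.99 there and 5.71 to 5.95 elsewhere. The part of either cell type in the Cxcr4 value was not tested. Without labelled-null replicate 3 Cxcr4 differed by 0.20.

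The muscle precursors of the arch core, which follow Cxcl12 signals in the branchial region, are read by another list. Of its 7 tested regulators 2 fell over all genes in limma, against 0.0373% of all genes that passed in either direction. This list too was chosen with earlier results of these data known. Means were lower for 5 of the 7 and higher for the other two, Isl1 (0.12) and Tbx1 itself (0.41). Myf5, a muscle determination factor, fell by 2.33 (log2, SE 0.27), and Tcf21, a factor of branchial muscle precursors, fell by 1.53 (SE 0.13). Neither passed with any 1 of the wild-type arrays left out. The mean of the list was 7.16 to 7.31 on the wild-type and 6.20 to 6.35 on the labelled-null arrays. Sox10, a factor of migratory crest and glia, differed by -0.03 (SE 0.14), and Foxd3, an early crest factor, was under the filter.

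**Figure D4:**
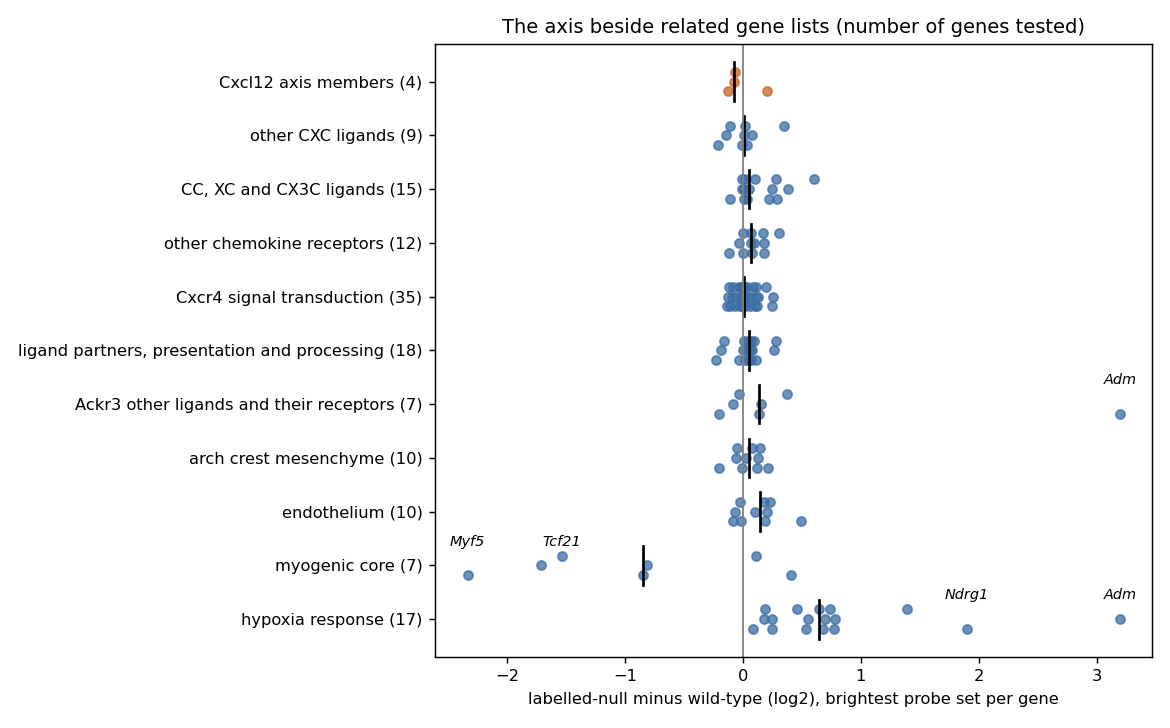
Differences between genotypes (labelled-null minus wild-type, log2, horizontal axis) of the 4 axis genes and of the genes tested in each related list, 1 point per gene, with the list median as a black bar and the number of genes in brackets. The axis genes lie between -0.12 and 0.21, while Adm (3.20), Ndrg1 (1.90), Myf5 (-2.33) and Tcf21 (-1.53) lie far outside the range of the chemokine lists.

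The genes whose pattern over the 6 arrays was most like that of each member were taken by Pearson r among the genes tested. They were Sdhb, Rdh5 and Irak1bp1 for Cxcl12 (r = 0.989 each), Xpot (0.991), Hoxa3 (0.980) and Magef1 (0.979) for Cxcr4, Cmtm4 (0.999), Unc50 (0.997) and Ano6 (0.995) for Ackr3, and Cdc42ep5 (0.991), Sec61b (0.987) and Grpel1 (0.981) for Cxcl14. Among all genes tested, r exceeded 0.9 for 260 genes (1.62%) with Cxcl12 and 71 (0.442%) with Cxcr4. It did so for 279 (1.74%) with Ackr3 and 162 (1.01%) with Cxcl14. The genes named are the highest of all those tested, over only 6 arrays. Xpot differed by 0.12 and Hoxa3 by 0.19 between the genotypes, and Cmtm4 by -0.02. Both genotypes entered the choice of these genes, so a direction shared with the member follows from the choice.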

How the data were processed

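The authors' deposited values were log2 expression per probe set and array, made with GCRMA per the submitters' processing notes, its version not being given in the sources used here. The log2 scale was read from the values (1.95 to 15.11). GCRMA brings array distributions close together (probe-set medians of 6.08 to 6.15 here) and compresses differences near background. Labelled cDNA was amplified from 100 ng of RNA, per the labels' protocols.

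Each gene was represented by the brightest of its probe sets with 1 symbol and tested if that set read above 4 (log2) on 3 or more arrays; 16073 genes qualified and 2120 did not; all 4 axis genes and all 7 of their probe sets qualified. Genotype was fitted across all genes, and separately across 37515 probe sets, with limma 3.58.1 in R 4.3.3 (lmFit, eBayes with intensity trend, Benjamini-Hochberg, threshold 0.05). Intervals cover 95% and use limma's moderated SE. The limma step was tested on simulated data. Single values had two-sided exact permutation tests.

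The members and lists were chosen with earlier results of these data known. Named were every axis probe set, Tbx1, up to 4 genes per list by smallest p and the 5 genes most like each member by Pearson r, of which part is printed. Further genes (Ackr4, Arrb1, Arrb2, Calcrl, Dpp4, Foxd3, Gzmd, Gzme, Isl1, Penk, Prf1, Sdc1, Sdc3, Sdc4, Sox10) were named after their values were seen. Wild-type and labelled-null arrays sharing a replicate number deviated together from their group means (r = 0.261, 0.130 and 0.135, against -0.195 to 0.065 for unlike numbers). Deviations within a group are not independent of each other, so this check is weak. On the data alone, the numbers were treated as a pairing in the pair differences and the replicate block only. The main fits, their intervals and the permutation tests used genotype without a pairing. The number of arrays limits the precision. Promoter sequences are from RefSeq (GRCm38.p6), all 4 genes matching by symbol; 10 of 123 listed pathway genes had no probe set of their own and were not analysed here.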

Additional observations from a re-analysis of the deposited data

How the results depend on the processing

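Under 14 alternatives (filter, floor, trend, probe-set summary, normalization, centring, array weights, replicate block, each array left out) no axis gene passed in limma: the adjusted p of each was 0.999 or above. Cxcl12 kept its direction under all 14 (-0.22 to -0.039 with 1 array left out, -0.011 with array weights), as did Cxcr4 (0.14 to 0.25), which had an unadjusted p under 0.05 in 6 of them. Ackr3 and Cxcl14 changed sign under 3 each. With array weights Ackr3 differed by 0.038, Cxcl14 by 0.067 and Cxcl12 set 1448823_at by 0.088. With 1 array left out Ackr3 ranged from -0.22 to 0.054, Cxcl14 from -0.25 to 0.019, its set 1418456_a_at from -0.27 to 0.036 and Cxcl12 set 1448823_at from -0.17 to 0.12; the cause was not tested. The replicate block changed no call of an axis gene, and among the 6 pathway lists it brought 1 gene, Adm, past the threshold (adjusted p = 0.0432 in limma), as did leaving out labelled-null replicate 2; leaving out each other array in turn left 0. In the hypoxia list 2 genes passed with the block, and 1, 2 and 3 without labelled-null replicates 1, 2 and 3. Myf5 and Tcf21 did not pass under 8 and 4 of the alternatives. Dim sets, such as 1439084_at near 5.5, limit what a difference can show.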

Other observations

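Over the 6 arrays the brightest sets of Cxcl12 and Cxcr4 correlated at r = -0.785, Cxcl12 and Cxcl14 at 0.598, Ackr3 and Cxcl14 at 0.597, Cxcl12 and Ackr3 at 0.120, Cxcr4 and Ackr3 at -0.178 and Cxcr4 and Cxcl14 at -0.388. The 6 pairs come from arrays that share genotype and normalization, and describe these arrays only. No gene of the following lists passed the threshold in limma. In each list 1 gene had an unadjusted p under 0.05 in limma, which 2.68% of all genes reached. The 8 epithelial markers had 4 higher and 4 lower means. Krt18, a keratin of simple epithelium, differed by 0.80 (SE 0.34, adjusted p = 1.00 in limma), and by 0.31 without labelled-null replicate 3, while Krt5, a keratin of basal epithelium, differed by -0.60 (SE 0.28). The 6 neuronal markers had 4 higher and 2 lower means. Stmn2, a neuronal gene, differed by 0.90 (SE 0.17, adjusted p = 0.340 in limma) with groups that did not overlap, as for 6.43% of all genes. The 3 tested markers of migratory crest and glia had 1 higher and 2 lower means. Fabp7, a glial fatty acid binding protein, differed by -0.52 (SE 0.18, adjusted p = 1.00 in limma), and Erbb3, a receptor of the glial lineage, by 0.13 (SE 0.11).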
